A study of Mus musculus with 8 samples.

Results

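Heat shock proteins and the molecular chaperones that work with them were compared between d6PGCLCs and E12.5 PGCs. The genes were chosen by their symbols, which were matched from the Entrez identifiers of the count table. They comprise the HSP70, HSP110, HSP90 and small heat shock protein families, the J-domain proteins of classes A, B and C (DnaJ, also called HSP40), the mitochondrial chaperonin, the cytosolic TRiC/CCT chaperonin, the BAG family and the heat shock factors HSF1 and HSF2. Of 89 mouse symbols that match these families, 76 had a row among the 21950 genes of the table. The 13 others, among them Hspd1, Hsp90b1, Dnaja1, Tcp1, Cct5, Bag1 and Hsf2, were not analysed here.

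d6PGCLCs are primordial germ cell-like cells at day 6 of induction, which is day 8 of culture. They were made from 1 BVSC-iPSC line, a mouse induced pluripotent stem cell line that carries Blimp1-Venus and Stella-ECFP reporters, by aggregation with BMP4, SCF, LIF and EGF, and were sorted as at the start of the study's differentiation culture, where the gate is either both reporters or the surface markers SSEA1 and integrin β3. E12.5 PGCs were sorted from the gonads of C57BL/6J female embryos by SSEA1 and integrin β3. Each group had 4 libraries of poly(A) RNA, each from a separate pool of sorted cells. The groups differ in genetic source, in culture against embryo and in developmental time at once, and these cannot be told apart.

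Chaperones bind proteins that are not yet folded, or that have lost their fold, and use ATP to release them. HSP70 proteins are loaded with clients by J-domain partners and emptied by nucleotide exchange factors of the HSP110 and BAG families. HSP90 takes over late folding steps of kinases and receptors, TRiC/CCT folds actin and tubulin inside a barrel, and small heat shock proteins hold denatured clients without ATP. Under heat or other proteotoxic stress the factor HSF1 binds heat shock elements, which are inverted repeats of the unit nGAAn, and induces a subset of these genes. The inducible HSP70s Hspa1a and Hspa1b are the classical targets. Their family member Hspa2 and several J-domain proteins are known for expression in testis, so that chaperones are also studied as germ cell genes.

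Counted reads per library ranged from 8054596 to 12024841 in d6PGCLCs and from 7991437 to 11166023 in E12.5 PGCs. Levels are given as CPM, the counts scaled to a common library total with TMM factors. The limit of detection was set at 3 counts and covers counting error only. It corresponds to 0.249 to 0.375 CPM when scaled by the library total alone, without TMM factors. On the TMM scale used for the levels, 3 counts in d6PGCLC replicate 1 are 0.383 CPM, as for Dnajb3. Of 9 germ cell markers all had counts, and their summed level was 3733 to 4321 CPM in d6PGCLCs and 4402 to 4921 CPM in E12.5 PGCs. Of these 4 were higher in d6PGCLCs (Pou5f1, Prdm1, Dppa3 and Tfap2c), 3 were lower (Dazl, Ddx4 and Dnd1) and 2 were not called. Dazl averaged 37.7 CPM in d6PGCLCs and, in E12.5 PGCs, 1262 CPM, and Ddx4 averaged 35.5 and 760.4 CPM. The 7 gonadal somatic markers with a row summed to 0.415 to 1.58 CPM and 2.80 to 7.16 CPM, respectively. E12.5 PGC replicate 2 stood apart from its group. Each of the 17 immediate early and dissociation response genes with a row (Fos, Jun, Egr1, Atf3 and others) was highest there among the E12.5 PGC libraries, with a summed level of 1522 CPM against 906, 946 and 1075 CPM in the other 3 and 1085 to 1205 CPM in d6PGCLCs. Between the groups 5 of the 17 were higher in d6PGCLCs (Junb, Zfp36, Nr4a1, Ier5 and Klf2) and 7 were lower, namely Egr2 (-3.53 on the log2 scale, and -3.26 without replicate 2), Atf3 (-3.02 and -1.88), Jun (-2.05 and -1.17), Klf6 (-0.73 and -0.56), Egr1 (-0.71 and -0.43), Fos (-0.70 and -0.40) and Dusp1 (-0.48 and -0.40). Without replicate 2 Fos and Dusp1 were no longer called, Ier2 and Btg2 were also higher, and the counts were 7 higher and 5 lower. Jun was at 41.9, 37.6 and 29.3 CPM in E12.5 PGC replicates 1, 3 and 4 and at 11.5 to 21.8 CPM in d6PGCLCs, so that it was lower there also apart from replicate 2. The part of these genes in the chaperone values was not tested. The 2 blood markers with a row summed to 26.0 CPM in E12.5 PGC replicate 2, to 0 to 3.37 CPM in replicates 1, 3 and 4, and to at most 0.121 CPM in d6PGCLCs. Of these 2 markers 1 had at most 3 counts in every library, so that nearly all of the sum in replicate 2 comes from the other. The summed gonadal somatic markers were also highest in replicate 2, at 7.16 CPM against 2.80 to 5.61 CPM in the other 3. Taken singly, 4 of these 7 markers were highest there. All 4 endothelium markers were highest in replicate 2, and their sum was 24.4 CPM against 14.3 to 17.96 CPM. In bulk RNA, fewer cells that express a gene and less RNA per cell cannot be told apart.

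Calls were made with edgeR's quasi-likelihood test over all 21950 genes where the p-value, adjusted by the method of Benjamini and Hochberg, was 0.05 or less. A positive fold change means a higher level in d6PGCLCs. Log2 fold changes are given ± SE and mean CPM ± SD over 4 libraries. Of the 76 chaperone genes 12 were higher in d6PGCLCs, 24 were lower and 40 did not pass the threshold. These are shares of 15.8% and 31.6%, where 16.1% of all genes were higher and 15.4% were lower. Since low genes can hardly be called, the 66 chaperone genes with a mean of at least 1 CPM are the closer comparison. Of them 11 (16.7%) were higher and 22 (33.3%) lower, against 28.1% and 25.6% of the 11487 genes at that level. At that level the share of lower calls is not far above the background, and the share of higher calls lies under it. When a log2 fold change of 2 or more in either direction was also required, 5 (6.58%) were higher and 4 (5.26%) lower, beside 3.24% and 3.37% of all genes. Of these 4, Dnajb8 and Hspa12b were at the limit of detection in d6PGCLCs, with bounds of -1.28 and -1.11, and under either filter on low counts the number was 2. The groups did not overlap for 14 genes (18.4%) with all d6PGCLC libraries above all E12.5 PGC libraries and for 23 (30.3%) with all of them below, beside 15.4% and 14.8% of all genes. The median log2 fold change of the 76 genes was -0.19 (-0.21 with genes at the limit of detection at their bound or left out), and 49 of them had a negative value, whereas the median over all genes was 0. The plot of fold changes by class shows lower calls for 6 of 10 HSP70, 3 of 3 HSP110 and 4 of 6 TRiC/CCT genes, for 1, 5 and 2 genes of the J-domain classes A, B and C, and for Hsp90aa1, Hspe1 and Hsf1. Higher calls were 3 small heat shock proteins, Bag3, and 2 and 6 genes of the J-domain classes B and C.

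**Figure D1:**
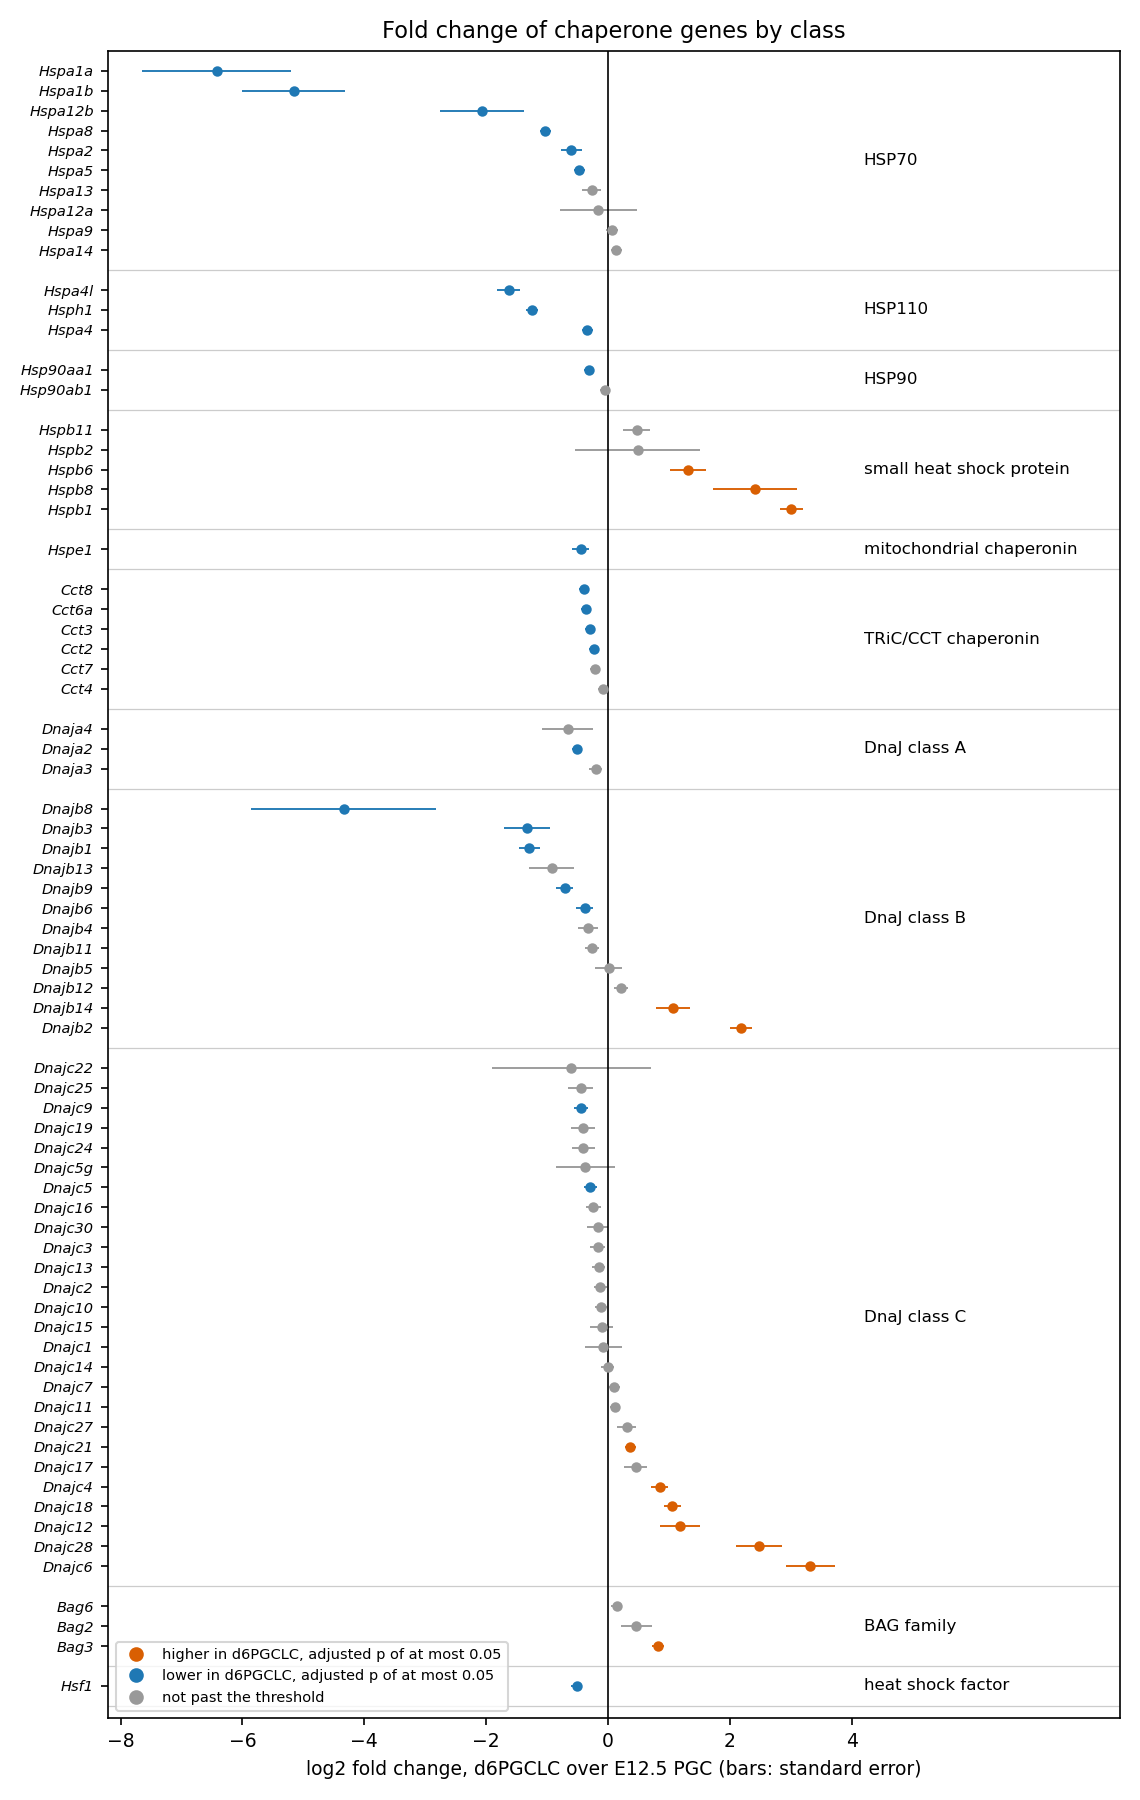
Log2 fold change (x axis, d6PGCLC over E12.5 PGC) of the 72 chaperone genes with more than 3 counts in at least 1 library, grouped by class, with bars for the standard error. Orange and blue points passed an adjusted p of at most 0.05. Hspa1a and Hspa1b lie farthest to the left at -6.42 and -5.16, all 3 HSP110 genes are blue, and Dnajc6 at 3.32 and Hspb1 at 3.01 lie farthest to the right.

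The largest differences were those of the inducible HSP70s. Hspa1a (chr17:34969359-34972156, GRCm38) was measured at 0.638, 0.305, 0.747 and 0.364 CPM in d6PGCLC replicates 1 to 4, which are 5, 3, 9 and 3 reads. In E12.5 PGC replicates 1 to 4 it was at 20.3, 144, 16.0 and 4.42 CPM. Every E12.5 PGC library was above every d6PGCLC library, yet the E12.5 PGC libraries themselves spanned a wide range, with replicate 2 far above and replicate 4 below the others. The log2 fold change was -6.42 ± 1.22 (adjusted p = 6.55e-06), and -4.65 without E12.5 PGC replicate 2. The neighbouring copy Hspa1b (chr17:34956429-34959238) was at 1.79, 1.73, 1.49 and 1.45 CPM in d6PGCLCs. In E12.5 PGCs it was at 23.2, 181, 21.8 and 6.41 CPM. Its libraries had the same order as those of Hspa1a in E12.5 PGCs, and its log2 fold change was -5.16 ± 0.84 (adjusted p = 1.28e-05), or -3.39 without replicate 2. Both copies encode nearly the same protein, and because only uniquely mapped reads were counted, reads shared between them were lost and the split between them is uncertain. The summed counts of both gave -5.60 ± 0.84 (adjusted p = 5.32e-06), and -3.83 ± 0.37 (adjusted p = 7.23e-08) without replicate 2, a fit that was added after seeing the data.

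The bases upstream of 5 of the 13 chaperone genes with a heat shock element word are shown as examples. These 5 genes moved in opposite directions or by very different amounts. Each is the 250 bases before an annotated start in RefSeq (GRCm38.p6), 5′ to 3′ on the gene's strand. Capitals mark GAANNTTC or TTCNNGAA, which are pairs of inverted heat shock units. Each of these patterns, with N for any base, reads the same on both strands, although the bases at N in a match need not.
Hspa1a chr17:34972157-34972406 (minus strand): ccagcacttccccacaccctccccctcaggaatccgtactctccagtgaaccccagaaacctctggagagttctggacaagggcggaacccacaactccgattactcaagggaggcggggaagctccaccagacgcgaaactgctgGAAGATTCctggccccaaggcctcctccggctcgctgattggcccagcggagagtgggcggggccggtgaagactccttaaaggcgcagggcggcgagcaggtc
Hspa1b chr17:34959239-34959488 (minus strand): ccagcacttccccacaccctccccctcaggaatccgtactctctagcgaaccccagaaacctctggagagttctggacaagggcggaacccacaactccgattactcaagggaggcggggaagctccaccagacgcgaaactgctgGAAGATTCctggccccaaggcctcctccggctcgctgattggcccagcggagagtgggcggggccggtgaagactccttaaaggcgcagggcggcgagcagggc
Hsph1 chr5:149636337-149636586 (minus strand): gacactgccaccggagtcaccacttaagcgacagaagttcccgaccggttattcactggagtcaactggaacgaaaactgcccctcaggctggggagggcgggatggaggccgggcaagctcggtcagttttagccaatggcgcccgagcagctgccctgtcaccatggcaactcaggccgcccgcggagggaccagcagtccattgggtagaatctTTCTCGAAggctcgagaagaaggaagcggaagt
Hspb1 chr5:135887669-135887918 (plus strand): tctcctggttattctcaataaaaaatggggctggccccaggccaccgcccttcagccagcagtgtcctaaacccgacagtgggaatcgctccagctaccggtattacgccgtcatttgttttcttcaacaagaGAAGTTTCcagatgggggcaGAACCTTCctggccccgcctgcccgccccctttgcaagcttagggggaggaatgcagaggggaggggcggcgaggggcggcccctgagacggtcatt
Hspe1 chr1:55087898-55088147 (plus strand): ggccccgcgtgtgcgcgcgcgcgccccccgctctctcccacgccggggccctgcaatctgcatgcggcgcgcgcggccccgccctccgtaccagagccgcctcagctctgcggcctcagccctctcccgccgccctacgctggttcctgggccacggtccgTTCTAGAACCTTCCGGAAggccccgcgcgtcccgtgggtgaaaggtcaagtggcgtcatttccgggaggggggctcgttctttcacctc

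Hspa1a and Hspa1b shared 247 of these 250 bases, and both had a single word that starts 104 bases before the start. Hsph1 had a single word 33 bases before its start, while Hspb1, which was higher in d6PGCLCs, had 2 words at 117 and 97 bases. Hspe1 had 3 overlapping words from 89 bases before its start, which form a run of 4 alternating units. Such words are common: 12.8% of all 32851 promoters of this length in RefSeq held at least 1, as did 1 or more promoters of 13.7% of the 16539 genes of the count table that had an entry. RefSeq promoters were at hand for 60 of the 76 chaperone genes, and 13 of them (21.7%) held a word in at least 1 promoter. By call these were 2 of 10 higher genes, 6 of 20 lower genes and 5 of 30 genes that were not called. No word was found for Dnajb1, Bag3 or Hspa4l, which are on the list of heat-inducible genes below. The presence or absence of a word therefore does not sort genes by whether they are listed as heat-inducible. A run of 3 alternating units, which is GAANNTTC or TTCNNGAA followed by 2 bases and the next unit in turn, was found in 0.466% of all promoters. Counted by gene, it was found for 0.526% of the genes of the count table that had an entry. Among the 60 chaperone genes it was found for 2 (3.33%), Hspe1 and Dnajb6. A match is a description of the letters only, and the 16 genes without an entry, among them Hspa8, Hsp90aa1, Hsp90ab1 and Hsf1, were not searched.

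The other HSP70s differed less. Hspa8 encodes the constitutive cytosolic HSC70, which also strips clathrin from vesicles. It was at 919, 1092, 1085 and 1088 CPM in d6PGCLCs and at 1847, 2177, 2222 and 2308 CPM in E12.5 PGCs. The groups were separated by a wide gap, with a 2.04-fold higher level in E12.5 PGCs (log2 fold change -1.03 ± 0.09, adjusted p = 8.43e-09). Hspa5, which encodes the HSP70 of the endoplasmic reticulum (BiP), was also lower, with a log2 fold change of -0.47 ± 0.09 (adjusted p = 0.00025). Hspa9, the HSP70 of the mitochondrial matrix (mortalin), ranged from 1190.0 to 1629 CPM in d6PGCLCs and from 1190.0 to 1429.9 CPM in E12.5 PGCs. The groups overlapped in part, since d6PGCLC replicates 1 and 2 lay above all E12.5 PGC libraries, and the value of 0.07 ± 0.10 (adjusted p = 0.771) changed sign without d6PGCLC replicate 1. Hspa2, the HSP70 of spermatocytes, had a log2 fold change of -0.60 ± 0.17 (adjusted p = 0.00907). Hspa12b, an atypical member known from endothelium, was at the limit of detection in d6PGCLCs with 1 to 2 reads per library against 4 to 9 reads, so that its log2 fold change has a bound of -1.11 against 3 reads per library. Of the 4 endothelium markers Cdh5 was higher in d6PGCLCs (11.0 and 4.18 CPM) and Tek was not called (16.3 and 13.97 CPM). Kdr (0.107 and 0.22 CPM) and Emcn (0 and 0.158 CPM) were not called either. Both were at the limit of detection in d6PGCLCs. In E12.5 PGCs Emcn had reads in replicate 2 only and Kdr in replicates 1 and 2 only. No direction can therefore be read for Kdr and Emcn. The median log2 fold change of the 4 markers was -0.337, and 0.803 with genes at the limit of detection at their bound. Hspa12a, Hspa13, Hspa14 and Hspa9 were not called.

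All 3 HSP110 genes, which encode nucleotide exchange factors of HSP70, were lower in d6PGCLCs. Hsph1 (HSP105), a heat-inducible member, was at 144, 126, 154 and 144 CPM in d6PGCLCs and at 327, 401, 303 and 312 CPM in E12.5 PGCs. The lowest E12.5 PGC library lay well above the highest d6PGCLC library, and the log2 fold change was -1.24 ± 0.10 (adjusted p = 3.09e-09). Hspa4l, which is highly expressed in testis, was at 28.2, 17.2, 14.7 and 18.4 CPM in d6PGCLCs and at 73.6, 41.8, 70.4 and 55.7 CPM in E12.5 PGCs. Here E12.5 PGC replicate 2 was the lowest of its group, in contrast to Hspa1a and Hspa1b, and the log2 fold change was -1.63 ± 0.18 (adjusted p = 4.77e-07). Hspa4 was the most abundant of the class, at 178 CPM per kb of exon in d6PGCLCs and 225 CPM per kb in E12.5 PGCs, and its log2 fold change was -0.34 ± 0.09 (adjusted p = 0.00435).

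Dnajb1 encodes HSP40, the J-domain partner with which HSP70 dissolves aggregates and represses HSF1. It was at 136, 159.5, 139 and 139 CPM in d6PGCLCs and at 266, 573, 287 and 275 CPM in E12.5 PGCs. The groups did not overlap and replicate 2 was again far above the rest, so that the log2 fold change of -1.29 ± 0.17 (adjusted p = 4.41e-06) became -0.94 without it. Hsf1 itself was at 101, 89.9, 96.0 and 91.0 CPM in d6PGCLCs and at 127, 141, 133 and 138 CPM in E12.5 PGCs. The groups were apart with little spread in either of them (log2 fold change -0.51 ± 0.09, adjusted p = 0.00011). The activity of HSF1 is set largely after translation and was not measured.

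HSP90 was the most abundant chaperone on the scale of CPM per kb. Hsp90ab1, the constitutive cytosolic form, stood at 2559 CPM per kb in d6PGCLCs and 2657 CPM per kb in E12.5 PGCs, above every other chaperone gene measured in both groups. Its libraries held 7814, 7755, 7347 and 7247 CPM in d6PGCLCs and 7673, 7605, 7974 and 8065 CPM in E12.5 PGCs. The groups overlapped, and the log2 fold change of -0.05 ± 0.07 did not pass the threshold (adjusted p = 0.743). Hsp90aa1, the inducible form, was at 1865, 1795, 1702 and 1873 CPM against 2333, 2058, 2266 and 2339.9 CPM. All E12.5 PGC libraries were above all d6PGCLC libraries by a modest margin (log2 fold change -0.31 ± 0.08, adjusted p = 0.00346).

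A list of 31 genes holds mostly co-chaperones of HSP70 and HSP90, but also the heat shock factors Hsf4 and Hsf5 and the mitochondrial HSP90 Trap1, which is counted again with the mitochondrial genes. Of these 27 had a row, and 3 were higher, 9 lower (Hsf5 and Trap1 among them) and 15 not called, with a median log2 fold change of -0.05. Sugt1, an adaptor of HSP90, averaged 223 ± 18.7 CPM in d6PGCLCs and, in E12.5 PGCs, 116 ± 16.8 CPM (0.94 ± 0.10). Stip1, which bridges HSP70 and HSP90 and was singled out after its values were seen, had a log2 fold change of -0.58 ± 0.08 (adjusted p = 6.13e-06).

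Of 7 small heat shock protein genes 3 were higher in d6PGCLCs, none was lower and 4 were not called. Hspb1 (HSP27; chr5:135887919-135889563), a heat-inducible holdase that also binds actin, was at 54.6, 71.7, 82.2 and 72.5 CPM in d6PGCLCs and at 6.74, 13.5, 7.84 and 6.86 CPM in E12.5 PGCs. The lowest d6PGCLC library was far above the highest E12.5 PGC library, which was replicate 2. The mean was 8.06-fold higher in d6PGCLCs (log2 fold change 3.01 ± 0.18, adjusted p = 6.24e-11) and the log2 value was 3.30 without replicate 2. Hspb6 (HSP20), known from muscle, was at 7.91, 7.64, 5.39 and 4.61 CPM against 3.12, 3.79, 1.94 and 1.53 CPM, with a log2 fold change of 1.31 ± 0.29 (adjusted p = 0.00106). Hspb8, the partner of BAG3 in selective autophagy, was low in both groups, with 8 to 27 reads per d6PGCLC library and 0 to 8 reads per E12.5 PGC library. Its log2 fold change of 2.41 ± 0.69 (adjusted p = 0.00445) became 3.79 without E12.5 PGC replicate 2, which held 8 of the 11 reads of its group. Of the other 4 genes of the class, Hspb11 and Hspb2 were not called, and Hspb3 and Hspb7 had at most 3 reads in every library.

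Bag3, an HSF1 target and nucleotide exchange factor that sends clients to autophagy together with HSPB8, was at 132, 117, 128 and 124 CPM in d6PGCLCs. In E12.5 PGCs it was at 77.5, 79.2, 64.9 and 63.5 CPM. All d6PGCLC libraries were above all E12.5 PGC libraries, with a log2 fold change of 0.82 ± 0.10 (adjusted p = 1.34e-06). Bag6, which hands tail-anchored proteins to the membrane insertion pathway, overlapped between the groups (0.14 ± 0.09, adjusted p = 0.267). Bag2, which inhibits the ubiquitin ligase CHIP, did not overlap between the groups but was low, with a mean of 4.10 ± 0.594 CPM in d6PGCLCs and, in E12.5 PGCs, 2.97 ± 0.527 CPM, and was not called (adjusted p = 0.20).

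Among the genes listed as heat-inducible, then, the direction was mixed. Of 14 listed genes 12 had a row. Of these 8 were lower in d6PGCLCs (Hspa1a, Hspa1b, Hspa4l, Dnajb1, Hsph1, Hspa8, Hspe1 and Hsp90aa1), 2 were higher (Hspb1 and Bag3) and 2 were not called (Dnajb4 and Hsp90ab1), with a median log2 fold change of -0.74. Among all genes with a mean of at least 1 CPM, 25.6% were lower and 28.1% higher. Without E12.5 PGC replicate 2 Hspe1 was no longer called (adjusted p = 0.0696), and the other 9 calls remained. The list also holds Hspa8 and Hsp90ab1, which encode the constitutive forms described above, and the counts and the median include both. It was drawn up with results of these data known. The plot of these 12 genes by library shows the gap at the level of Hspa1a and Hspa1b and its reversal at Bag3 and Hspb1.

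**Figure D2:**
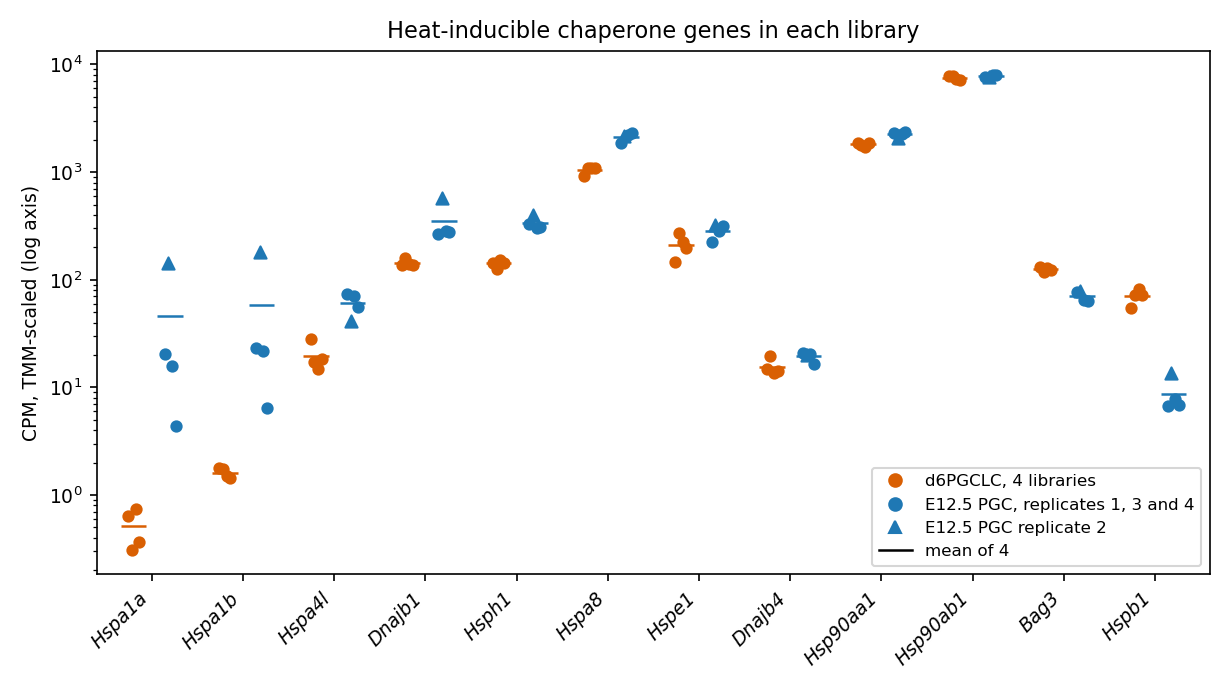
CPM on a log axis (y) of the 12 genes listed as heat-inducible (x, ordered by fold change), which include the constitutive Hspa8 and Hsp90ab1. The 4 d6PGCLC libraries are orange and the 4 E12.5 PGC libraries blue, with E12.5 PGC replicate 2 as a triangle and bars for the mean of 4. For Hspa1a and Hspa1b replicate 2 lies at 144 and 181 CPM, above the other 3 libraries of its group, and the d6PGCLC libraries lie under 2 CPM.

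TRiC/CCT is built from 8 different subunits in equal number, of which 6 had a row under the names Cct2, Cct3, Cct4, Cct6a, Cct7 and Cct8. All 6 had a negative log2 fold change, and 4 were called. Cct8 was at 1159, 1237, 1073 and 1194 CPM in d6PGCLCs and at 1544, 1418, 1523 and 1615 CPM in E12.5 PGCs, with the groups apart (-0.39 ± 0.08, adjusted p = 0.000625). Cct6a (-0.36 ± 0.09, adjusted p = 0.00191) and Cct3 (-0.30 ± 0.08, adjusted p = 0.00661) were likewise lower. Cct2 had the smallest called difference (-0.23 ± 0.08, adjusted p = 0.0301), and it was lost when any of 5 single libraries was left out, with adjusted p up to 0.0951. Cct7 had -0.21 ± 0.09 and missed the threshold at an adjusted p of 0.0685. Cct4 was at 437, 478, 434 and 432 CPM against 505, 441, 481 and 467 CPM, which overlap (-0.09 ± 0.08, adjusted p = 0.542). Per kb of exon Cct2, Cct3, Cct6a, Cct7 and Cct8 lay close together at 389.7 to 597 CPM per kb in d6PGCLCs and at 494 to 698 CPM per kb in E12.5 PGCs, whereas Cct4 was at 212 and 225 CPM per kb. The counting of a single isoform per gene can lower such a level. In d6PGCLCs replicate 2 had the highest level of each of the 6 subunits.

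**Figure D3:**
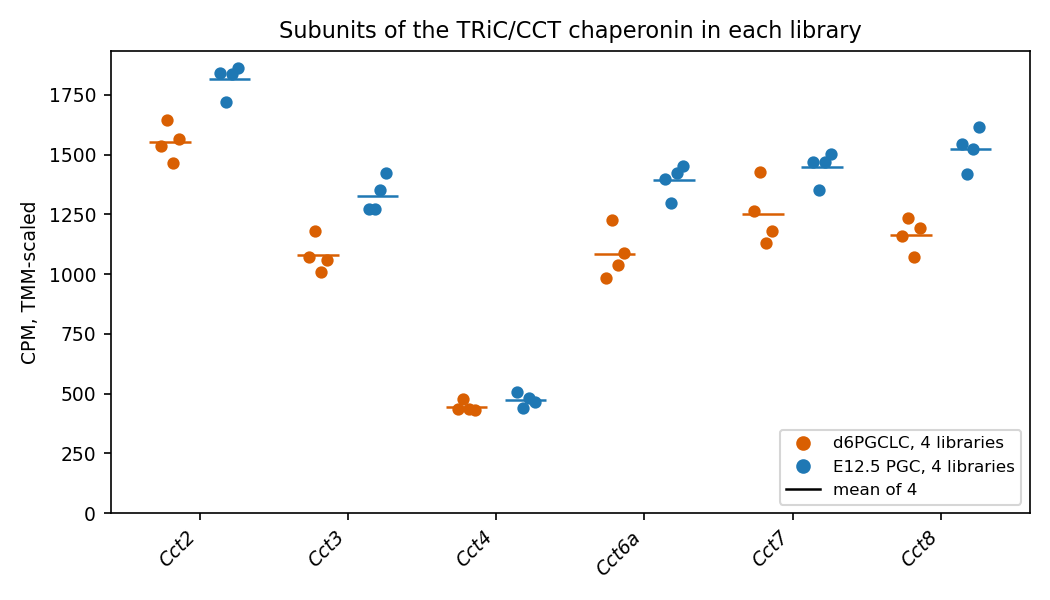
CPM (y axis, from 0) of the 6 measured TRiC/CCT subunits (x) in each d6PGCLC library (orange) and E12.5 PGC library (blue), with bars for the mean of 4. Cct8, Cct6a, Cct3 and Cct2 show a gap between the groups, while Cct7 and Cct4 overlap.

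Prefoldin delivers actin and tubulin to TRiC/CCT, and further cofactors complete the tubulin dimer. Of 16 such genes listed 12 had a row, and 3 were higher, 1 lower and 8 not called (median log2 fold change -0.01). Pdcl, a phosducin-like cofactor of TRiC/CCT, averaged 61.7 ± 7.99 CPM in d6PGCLCs and, in E12.5 PGCs, 37.7 ± 3.16 CPM (0.71 ± 0.12, adjusted p = 6.39e-05). Tbcc, a tubulin cofactor, had -0.51 ± 0.17 (adjusted p = 0.0292).

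In the mitochondrial chaperonin only Hspe1 (HSP10), the lid of the folding chamber, had a row. It was at 146, 272, 223 and 198 CPM in d6PGCLCs and at 225, 325, 282 and 313 CPM in E12.5 PGCs. The groups overlapped, since d6PGCLC replicate 2 lay above E12.5 PGC replicate 1, and the log2 fold change of -0.45 ± 0.14 (adjusted p = 0.0176) lost its call without E12.5 PGC replicate 2 or replicate 4. Of 8 mitochondrial genes of the chaperone families with a row, Dnajc28 was higher, Hspe1 was lower and 6 were not called. Of 11 further genes of mitochondrial folding and proteolysis with a row, 1 was higher, 3 were lower and 7 were not called. Yme1l1, a protease of the inner membrane, had 0.48 ± 0.10 (adjusted p = 0.000606), and Trap1, the HSP90 of mitochondria, had -0.45 ± 0.09 (adjusted p = 0.000298).

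In the endoplasmic reticulum 12 chaperone genes had a row. Dnajb14 and Dnajc18, both J-domain proteins anchored in its membrane, were higher, Hspa5 and Dnajb9 were lower, and 8 were not called. Dnajb9 (ERdj4), which limits the sensor IRE1 through BiP, was at 21.3, 20.0, 19.0 and 19.8 CPM in d6PGCLCs and at 30.1, 42.4, 30.2 and 28.3 CPM in E12.5 PGCs, again with replicate 2 highest (-0.71 ± 0.15, adjusted p = 0.000557). Dnajb11 (ERdj3), the secreted partner of BiP, missed the threshold (-0.26 ± 0.11, adjusted p = 0.0934). Of 27 genes of folding in this compartment and of the unfolded protein response that had a row, 5 were higher, 9 lower and 13 not called. Xbp1, the transcription factor spliced by IRE1, averaged 85.9 ± 8.55 CPM in d6PGCLCs and, in E12.5 PGCs, 29.2 ± 1.97 CPM (1.55 ± 0.11, adjusted p = 5.35e-10). Gene counts do not show its splicing. Ero1a, an oxidase of disulfide formation, was at 285 ± 65.3 CPM and 118 ± 6.02 CPM (1.27 ± 0.13, adjusted p = 7.67e-08). Of the lower genes of this list, Serpinh1, a collagen chaperone, had -1.27 ± 0.12, and Ern1 (IRE1), P4hb, Pdia4, Derl3, Pdia3, Syvn1, Calr and Hyou1 had -0.86 to -0.26. The other higher genes of this list were Ero1b (0.92 ± 0.32), Atf6 (0.90 ± 0.14) and Pdia6 (0.44 ± 0.09). These and the 9 lower genes were named after their values were seen.

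J-domain proteins formed the largest group of genes. In class A, Dnaja2, a main partner of HSC70, was at 417, 426, 369.8 and 391 CPM in d6PGCLCs and at 583, 522, 584 and 597 CPM in E12.5 PGCs, with no overlap (-0.51 ± 0.08, adjusted p = 4.64e-05). Dnaja3, a partner of mitochondrial HSP70, was not called (-0.20 ± 0.10, adjusted p = 0.158), nor was Dnaja4. In class B, of 13 genes 2 were higher and 5 lower. Dnajb2, a J-domain protein with ubiquitin-binding motifs that is known from neurons, was at 27.3, 26.5, 27.9 and 25.0 CPM in d6PGCLCs and at 3.87, 7.37, 6.18 and 5.87 CPM in E12.5 PGCs. Its d6PGCLC libraries were tightly grouped and far above those of E12.5 PGCs, with a 4.55-fold higher level in d6PGCLCs (2.18 ± 0.18, adjusted p = 3.12e-09). Dnajb14 was at 8.68, 7.13, 4.81 and 4.00 CPM against 3.49, 1.79, 3.60 and 2.80 CPM, a narrow gap (1.07 ± 0.29, adjusted p = 0.00534). Dnajb6, a suppressor of aggregation, passed barely (-0.38 ± 0.14, adjusted p = 0.0478), and did so in 12 of 19 alternative analyses (adjusted p = 0.0716 without E12.5 PGC replicate 2).

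Class C is the most varied, since its members carry a J domain within otherwise unrelated proteins. Of 27 genes 6 were higher, 2 lower and 19 not called, with a median log2 fold change of -0.12 (-0.14 to -0.052 with single libraries left out). Dnajc6, which encodes auxilin, the cofactor with which HSC70 uncoats clathrin vesicles, was at 7.02, 3.87, 6.06 and 4.97 CPM in d6PGCLCs. In E12.5 PGCs it was at 0.749, 0.631, 0.645 and 0.181 CPM. The level was 9.97-fold higher in d6PGCLCs (3.32 ± 0.40, adjusted p = 2.46e-07), from 2 to 7 reads per E12.5 PGC library. Dnajc28 was at 3.19, 3.87, 7.88 and 6.42 CPM against 0.499, 1.37, 1.11 and 0.812 CPM (2.48 ± 0.37, adjusted p = 9.32e-06). Dnajc18 was at 33.6, 30.4, 30.6 and 28.0 CPM against at most 15.9 CPM (1.06 ± 0.14, adjusted p = 3.44e-06). Dnajc12, a cofactor of the aromatic amino acid hydroxylases, was at 3.19 ± 1.02 CPM and 1.40 ± 0.371 CPM (1.18 ± 0.33, adjusted p = 0.00698), and its lowest d6PGCLC library at 1.91 CPM lay next to its highest E12.5 PGC library at 1.90 CPM. The other called members, listed to complete the class, were Dnajc4 (0.85 ± 0.14) and Dnajc21 (0.37 ± 0.09), a factor of ribosome maturation, which were higher, and Dnajc9 (-0.44 ± 0.11), a histone chaperone of H3 and H4, and Dnajc5 (-0.29 ± 0.10), the cysteine string protein of secretory vesicles, which were lower. The groups of Dnajc5 overlapped, and it passed the threshold in 12 of 19 alternative analyses. Dnajc11 and Dnajc7, abundant members per kb of exon, were not called.

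**Figure D4:**
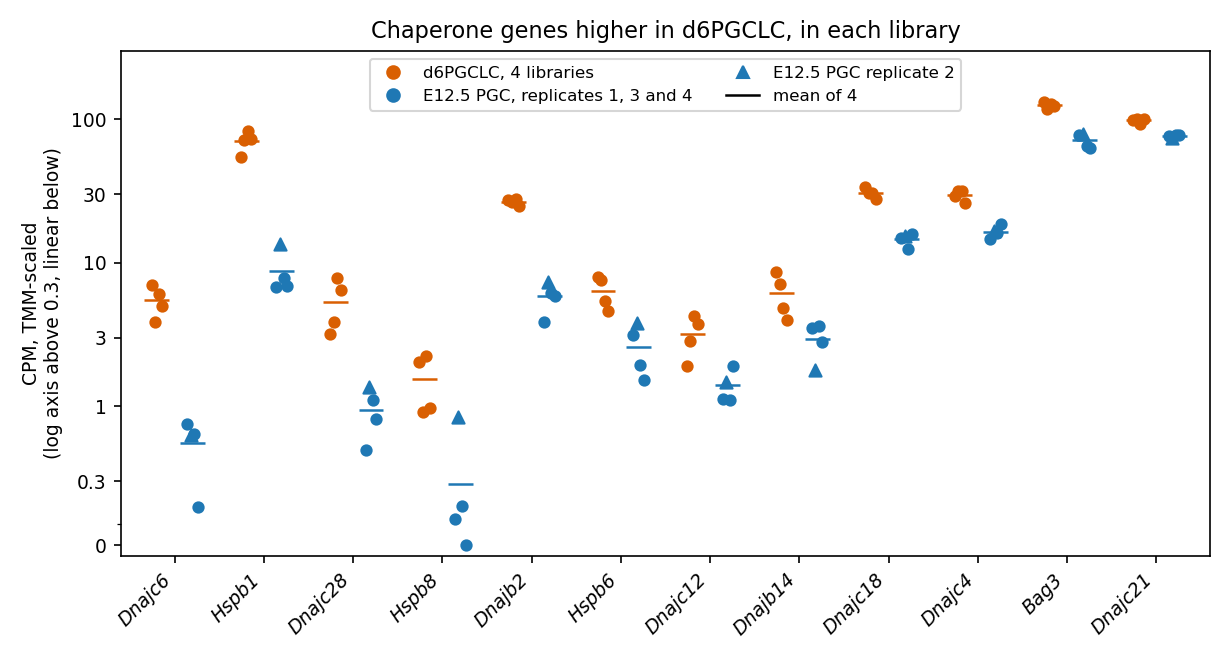
CPM (y, log axis above 0.3 and linear below) of the 12 chaperone genes that were higher in d6PGCLCs (x, ordered by fold change) in each library, with E12.5 PGC replicate 2 as a triangle and bars for the mean of 4. All 12 genes show the d6PGCLC libraries (orange) above the E12.5 PGC libraries (blue), with the narrowest gaps at Dnajc12, Hspb8 and Dnajb14.

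Of 9 listed chaperone genes known for expression in testis or germ line 7 had a row, and 4 were lower (Hspa2, Hspa4l, Dnajb3 and Dnajb8), none was higher and 3 were not called, with a median log2 fold change of -1.33, or -1.10 with Dnajb8 at its bound and Dnajc5b left out. Of all genes 15.4% were lower, and 25.6% of those with a mean of at least 1 CPM. Hspa4l is also counted above in the HSP110 class and among the genes listed as heat-inducible. Dnajb3 was at 0.383, 0.713, 1.49 and 1.09 CPM in d6PGCLCs and at 2.37, 2.32, 2.77 and 2.17 CPM in E12.5 PGCs, without overlap (-1.33 ± 0.38, adjusted p = 0.008). Dnajb8 was detected in every E12.5 PGC library, with 6 to 12 reads, and gave 1, 0, 0 and 0 reads in d6PGCLCs. Since all d6PGCLC libraries were at the limit of detection, its log2 fold change has a bound of -1.28 (adjusted p = 0.000439). Dnajb13 was not called (adjusted p = 0.0605), although it passed in 8 of 19 alternative analyses. Dnajc5g was not called either, and Dnajc5b had at most 3 reads in every library. Dnajb7, which is not on this list, also had at most 3 reads in every library. Apart from Hspa4l at 60.4 CPM and Hspa2 at 12.2 CPM, the listed genes were at a mean of 2.56 CPM or less in E12.5 PGCs.

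E12.5 PGC replicate 2 was compared with the median of the other 3 E12.5 PGC libraries for the 66 genes with a mean of at least 1 CPM. The ratio was 9.05 for Hspa1a, 8.32 for Hspa1b, 3.25 for Dnaja4, 2.08 for Dnajb1, 1.96 for Hspb1 and for Hspb6, and 1.68 for Dnajc28. These 7 genes (10.6%) reached 1.5, as did 669 (5.82%) of the 11487 genes at that level. The ratio was 1.28 for Hsph1 and 1.22 for Bag3, and its median over the 66 genes was 0.98. Of the 7 genes Hspa1a, Hspa1b, Dnajb1 and Hspb1 are among those listed above as heat-inducible. On the same list Hspa8 and Dnajb4 (both 0.98), Hsp90ab1 (0.95), Hsp90aa1 (0.88) and Hspa4l (0.59) had ratios under 1. The immediate early genes, the endothelium markers and the summed blood and gonadal somatic markers that were highest in the same library are given above. Their part in these values was not tested. Without replicate 2, 12 chaperone genes were higher and 23 lower. With only 3 E12.5 PGC libraries left, Hspa1a and Hspa1b were still above every d6PGCLC library, by the values given for them.

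**Figure D5:**
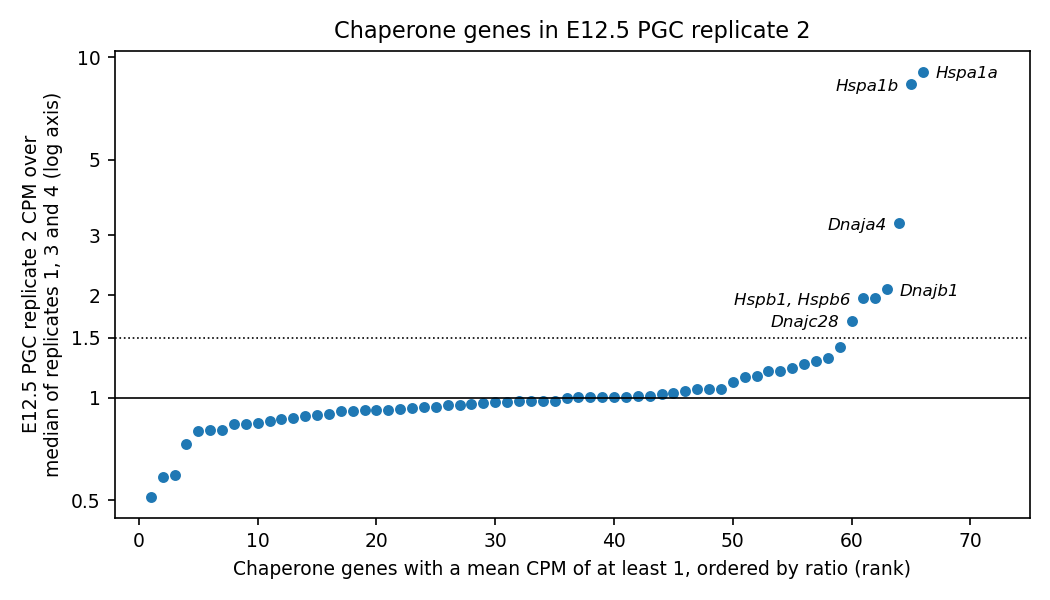
Ratio of the CPM in E12.5 PGC replicate 2 to the median of replicates 1, 3 and 4 (y, log axis) for the 66 chaperone genes with a mean of at least 1 CPM, ordered by ratio (x, rank). The solid line marks a ratio of 1 and the dotted line 1.5, which 7 genes exceed, led by Hspa1a at 9.05 and Hspa1b at 8.32.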

How the data were processed

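RNA was sequenced from d6PGCLCs and E12.5 PGCs, 4 pools each, as stranded poly(A) libraries (single-end reads of 100 bases). The authors deposited a table of raw, unnormalized counts per Entrez gene, in which a read counts where it maps uniquely. They aligned reads with STAR to GRCm38 (mm10) with ERCC sequences, took a random isoform per gene, dropped genes at random where promoters overlapped, and used QuasR to count exonic reads. Another deposited column gives the exonic length of that isoform in bases, which was used for CPM per kb. Whether counting used strand is not stated, so antisense and overlapping genes are uncertain, and near-identical copies lose reads.

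Entrez identifiers were matched to RefSeq (21907 of 21950 had a symbol). The chaperone genes, their classes and the gene lists were chosen with earlier results of these data known. All 8 libraries were kept, and pairs of a group differed by more than sampling noise (chi-square divided by its degrees of freedom, 3.35 to 22.1). Counts were fitted in R 4.3.3 with edgeR 4.0.16 (TMM, glmQLFit, glmQLFTest, prior count 0.125, no filter on low counts, cell type as the only term). p-values were adjusted over all genes. The study used the likelihood ratio test of the same package, which is an alternative here. Where no library of a group held more than 3 counts of a gene, that group was at the limit of detection, and the fold is a bound. Precision differed between libraries, since d6PGCLC replicate 1 stood at 17.3 to 22.1 of the noise measure above against its group, where d6PGCLC replicates 3 and 4 stood at 4.79. Alternatives were DESeq2 1.42.0, other scalings, 2 filters, a prior count of 2, an adjusted p of 0.01, a correction for exonic length, a replicate block, summed counts of Hspa1a and Hspa1b, and leaving out each library. The fit was also run on simulated counts, whose outcome is not reported and on which no statement here rests.

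Named in full were all members of the HSP90, HSP110, TRiC/CCT, mitochondrial chaperonin, BAG and heat shock factor classes. In the other classes these were the called members changed by 1 or more on the log2 scale and the 2 most abundant per kb, and further called members complete each class. Of other gene lists the 2 called genes with the largest change and a mean of at least 100 counts were named. A gene that this rule names is left out here. Promoters were searched in Python. The study's oocyte and chromatin data were not used here.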

Additional observations from a re-analysis of the deposited data

Results flagged for a closer look

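For 78 sets of 4 libraries (39 named chaperone genes in both groups), the library farthest from the rest was examined, and in 10 sets its gap to the nearest other library was large relative to the range of the group. The cut was that of Dixon's criterion, which about 1 set in 20 passes by chance if values are independent and normally distributed. That was not checked for these CPM, so the rate is nominal only. A set with reads in a single library, as for Dnajb8 below, always passes. The 5 sets of E12.5 PGC replicate 2 were Hspa1a at 144 CPM (others 4.42 to 20.3), Hspa1b at 181 CPM (6.41 to 23.2), Dnajb1 at 573 CPM (266 to 287) and Hspb1 at 13.5 CPM (6.74 to 7.84), all above the rest, and Dnajb11 at 91.5 CPM (99.8 to 101), below the rest. In d6PGCLC replicate 2, Bag2 was at 4.99 CPM (3.76 to 3.83), Dnajb1 at 159.5 CPM (136 to 139) and Cct4 at 478 CPM (432 to 437). In d6PGCLC replicate 1, Hspa8 was at 919 CPM (1085 to 1092) and Dnajb8 at 0.128 CPM, which is a single read where the other 3 libraries had 0.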

How the results depend on the processing

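There were 15 summary results, namely 4 counts of calls and 11 class medians. No alternative turned the sign of a class median, and counts have no sign. Of the comparisons with an alternative, 13 passed the margin set for a change and 276 did not. For a median this margin is its pooled SD over libraries. With leave-one-out, the count of higher chaperone genes ranged from 12 to 14 and that of lower ones from 20 to 28. The study's likelihood ratio test gave 12 and 25. The count of lower genes with a log2 fold change of at least 2 was 4, and it was 2 under a filter of CPM above 1 in at least 3 samples and 2 under filterByExpr, because Dnajb8 and Hspa12b are too low to be kept. The median of the small heat shock proteins, 1.59 with Hspb2, Hspb3 and Hspb7 almost without reads, was 1.31 with genes at the limit at their bound or left out, 0.773 with DESeq2, 1.30 with the CPM filter, 1.29 with filterByExpr and 0.46 with a prior count of 2, and 1.39 to 1.89 with single libraries left out. With single libraries left out the median ranged from -0.55 to -0.24 for DnaJ class A, where E12.5 PGC replicate 2 gives the latter, from -0.44 to -0.26 for DnaJ class B, from -0.14 to -0.052 (without d6PGCLC replicate 1; -0.06 without E12.5 PGC replicate 1) for DnaJ class C and from 0.35 to 0.59 for the BAG family. Hspa9, never called, ranged from -0.015 (without d6PGCLC replicate 1) to 0.13 (without d6PGCLC replicate 3).

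Among single genes, Hspe1, Cct2, Dnajc5 and Dnajb6 lost their calls when some single libraries were left out, with adjusted p of up to 0.0696, 0.0951, 0.138 and 0.172, and Dnajc5 also with a length offset (adjusted p = 0.0634). Of the genes not called, Cct7 passed under 9 of 19 alternatives, Dnajb13 under 8, Dnajb11 under 4, Dnaja3 and Dnajc24 under 3, Dnajc17 under 2, and Dnajc19, Dnajb4, Hspb11, Dnajc16 and Dnajc27 under 1. The replicate numbers of the titles were not taken to pair the libraries, because the correlations of same-numbered libraries were 0.328, 0.127, -0.051 and 0.048. With the numbers as a replicate block, 13 genes were higher and 28 lower; the calls gained were Cct7 (adjusted p = 0.0111), Dnajb13 (0.0286), Dnajb11 (0.0323), Dnajc17 (0.0396) and Dnajc24 (0.0398). Other scalings moved the median over genes with a mean of at least 1 CPM by less than 0.04. Depth limits statements on Hspa12b, Dnajb8, Hspb2, Hspb3, Hspb7, Hspb8, Dnajb7, Dnajc5b and Dnajc22, which had few or no reads in at least 1 group.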
